A study of Mus musculus with 15 samples.

Results

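Heat shock and chaperone genes were followed across 15 RNA-seq libraries of mouse plantaris, a fast muscle of the calf. The 10 genes were chosen by symbol, as inducible and constitutive chaperones, and all 10 were among the 20406 genes of the count table and had counts in all 15 libraries. They were Hspa1a, Hspa1b, Hspa8 and Hspa5 of the HSP70 family, Hsph1 of the HSP110 family, Hsp90aa1 and Hsp90ab1 of the HSP90 family, the HSP40 co-chaperone Dnajb1, and the small heat shock proteins Hspb1 and Cryab.

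All mice were adult males of the HSA-GFP strain, in which a human skeletal actin promoter drives a tetracycline-controlled transactivator and, through it, a green fluorescent histone that labels the nuclei of muscle fibres. The controls carried these transgenes too. The group 6M_PoW had trained for 8 weeks by progressive weighted wheel running (PoWeR), in which the load on a running wheel is raised over time, and was sampled at 6 months of age. The group 6M_POW_LD held libraries titled as further trained mice of 6 months, replicates 4 to 6, with identifiers that begin with LD; the meaning of LD was not given in the sources used here. The group 9M_PoW+DT had trained for 8 weeks and then detrained for 12 weeks, and was sampled at 9 months. Untrained mice of 9 months (9M_UT) and 6 months (6M_UT) were the controls. Each of the 5 groups held 3 libraries, and nothing in the labels says that these came from separate mice, so a p-value speaks only of the spread among these libraries, which may be technical. Libraries of a group differed by more than counting noise, with a chi-square per gene of 10.1 to 48.4 over the 15 pairs within groups. So none was taken as a second reading of the same library. This measure does not tell separate mice from separate preparations of the same tissue.

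Groups were taken from the titles. The treatment field went against the title in 9 libraries, calling the 3 LD libraries sedentary and giving each of the 6 libraries of 9 months the opposite condition. Age and library series could not be told apart, since the identifiers of the 6-month, 9-month and LD libraries differ. Library totals were 18865048 to 27688842 counts. The 8 muscle fibre markers, among them Acta1, Ckm and Myh4, summed to 96020 to 130100 CPM (counts per 1000000) per library. Muscle fibre RNA was thus abundant in every group, but these markers do not tell plantaris from other fast muscles.

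Chaperones bind unfolded protein chains, keep them from clumping and help them to fold. HSP70 proteins work in cycles with HSP40 partners, which deliver the client, and HSP110 proteins, which exchange the bound nucleotide. HSP90 takes on nearly folded clients such as kinases and receptors and, in muscle, the motor domain of myosin. Under heat or other protein stress the transcription factor HSF1 binds heat shock elements, repeats of nGAAn in alternating direction, and raises Hspa1a, Hspa1b, Hsph1, Dnajb1 and Hspb1, whereas Hspa5 answers to the unfolded protein response of the endoplasmic reticulum (ER). In muscle, Cryab and Hspb1 are known for binding to desmin, titin and other parts of the sarcomere and cytoskeleton.

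Promoter sequences are given for some of the genes the results below turn on. RefSeq promoters of GRCm38.p6, 250 bases before to 50 bases after the RefSeq gene start, were at hand for 6 of the 10 genes, and 4 are printed. Positions are counted from this RefSeq start. For Hspa5 and Hsph1 it lies inside the gene coordinates given below, not at their start. Those of Hsp90ab1, Hsp90aa1, Hspa8 and Cryab were not analysed here. Hspa1a and Hspa1b are shown because their levels varied together over the libraries, Hsph1 because it was lower in the LD libraries, and Hspa5 because it had the largest difference after training relative to its error. Each is written in the direction of transcription, with capitals marking any heat shock element core (GAANNTTC or TTCNNGAA) and any ER stress response element (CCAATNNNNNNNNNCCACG).
Hspa1a (chr17:34972107-34972406, minus strand): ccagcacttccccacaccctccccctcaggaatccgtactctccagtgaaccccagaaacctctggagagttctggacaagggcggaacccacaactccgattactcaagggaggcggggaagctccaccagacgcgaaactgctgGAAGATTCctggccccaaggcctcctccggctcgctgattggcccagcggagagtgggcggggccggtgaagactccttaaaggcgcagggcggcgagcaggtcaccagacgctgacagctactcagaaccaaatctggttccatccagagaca
Hspa1b (chr17:34959189-34959488, minus strand): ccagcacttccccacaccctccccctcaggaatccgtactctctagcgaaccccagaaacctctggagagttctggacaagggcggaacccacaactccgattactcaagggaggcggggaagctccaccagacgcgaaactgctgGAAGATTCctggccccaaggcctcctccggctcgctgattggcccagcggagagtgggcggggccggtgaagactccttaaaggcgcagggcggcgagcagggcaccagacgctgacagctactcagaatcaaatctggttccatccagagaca
Hsph1 (chr5:149636287-149636586, minus strand): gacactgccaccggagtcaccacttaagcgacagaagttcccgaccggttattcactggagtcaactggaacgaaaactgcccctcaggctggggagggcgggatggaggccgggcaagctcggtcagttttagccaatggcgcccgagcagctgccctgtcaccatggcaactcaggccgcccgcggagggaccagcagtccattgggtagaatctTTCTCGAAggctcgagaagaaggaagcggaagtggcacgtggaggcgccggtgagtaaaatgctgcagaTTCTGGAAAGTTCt
Hspa5 (chr2:34771840-34772139, plus strand): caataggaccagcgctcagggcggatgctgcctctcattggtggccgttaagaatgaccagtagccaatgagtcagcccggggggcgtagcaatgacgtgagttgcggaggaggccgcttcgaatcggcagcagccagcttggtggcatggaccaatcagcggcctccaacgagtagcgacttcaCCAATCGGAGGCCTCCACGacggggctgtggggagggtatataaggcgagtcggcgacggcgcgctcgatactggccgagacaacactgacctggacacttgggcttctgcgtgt

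The Hspa1a and Hspa1b windows were 98.7% identical over 300 bases and differed at 4 positions, C44T, T47C, T249G and C276T, counted from the left end with the base of Hspa1a first. Each held a single core, GAAGATTC, at the same place, from -104 to -97 relative to the gene start. The Hsph1 window held 3 cores, and a pair of them overlapped to form the longer 3-part element TTCNNGAANNTTC at 36 to 48 bases after the start. Searched on both strands, the core was present in 15.1% of all 27025 promoters of this length and the 3-part element (GAANNTTCNNGAA or its reverse) in 0.529%. The Hspa5 window held no core and 1 ER stress response element, from -65 to -47, a motif found in 0.130% of promoters. By the gene coordinates given below, which start at 34771970, this element lies inside the gene. The other promoters at hand were those of Hspb1, with 2 cores, and Dnajb1, with none. A match describes these letters and does not show that a factor binds there.

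Levels spanned more than 2 orders of magnitude when counts were divided by transcript length. Per kilobase, averaged over the 15 libraries, Hsp90ab1, the constitutive cytosolic HSP90, stood at 371 ± 45.0 CPM and Cryab at 351 ± 55.6 CPM (SD), and their ranges over libraries overlapped. Hspa8, the constitutive cytosolic HSP70, followed at 199 ± 33.8 CPM per kilobase and Hspb1 at 130 ± 26.4, again with overlapping ranges. Summed with the pseudogenes described below, over the length of Hspa8, Hspa8 stood at 407 ± 22.2 CPM per kilobase (368 to 446 over the libraries), which puts it first and overlapping Hsp90ab1. The ER chaperone Hspa5 came next at 32.2 ± 3.90 CPM per kilobase, then Hsph1 at 16.7 ± 1.99 and the stress-inducible HSP90 gene Hsp90aa1 at 8.84 ± 0.854. Counted alone, none of these overlapped its neighbours in the order. With pseudogenes, Hspb1 rose from 118 ± 23.8 to 192 ± 37.5 CPM and Hsp90aa1 from 29.0 ± 2.80 to 43.25 ± 4.495 CPM, not divided by length. These sums were not placed in the order, so the places of both genes hold only for the genes alone. The lowest were the inducible HSP70 genes and the HSP40 gene, with Hspa1a at 3.87 ± 1.01, Hspa1b at 2.65 ± 1.45 and Dnajb1 at 1.64 ± 0.402 CPM per kilobase, and neighbours among these overlapped. The lowest expected count of any of these genes in a library was 70.6, for Hspa1b, so counting error was widest for Hspa1b and Dnajb1.

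**Figure D1:**
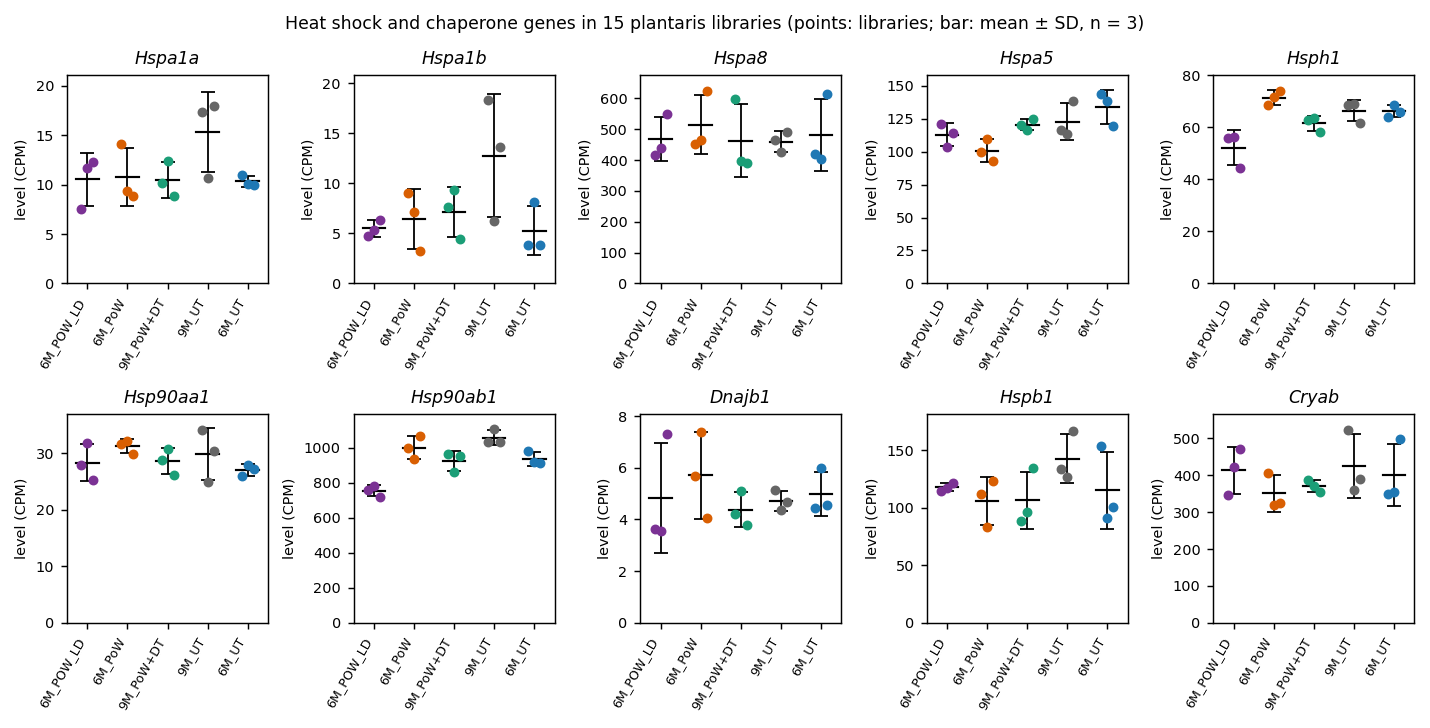
Level in CPM (vertical axes, each starting at 0) of the 10 genes in 5 groups of 3 libraries; points are libraries and bars are the mean ± SD. The 3 LD libraries lie below all others for Hsp90ab1 (721 to 784 CPM) and Hsph1 (44.4 to 56.2 CPM), and replicates 1 and 3 of 9M_UT lie highest for Hspa1a and Hspa1b.

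Near-identical copies limit some of these values. Of all 50-base stretches of its transcript, Hspa1a shared 58.8% with Hspa1b, Hspa8 shared 70.0% with the processed pseudogene Gm15459, Hspb1 shared 58.9% with Hsp25-ps1 and Hsp90aa1 shared 51.5% with Gm12346. How the authors split reads between such copies was not given in the sources used here. Hspa5, Cryab and Hsph1 shared none, and Hsp90ab1 shared 4.49% over all genes, so Hsp90ab1 and Hsph1, which passed a test below, are little exposed to this. Cryab overlaps Hspb2 on the opposite strand by 1030 bases, and whether counting used the strand was not given either.

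For Hspa8 the split between gene and pseudogene differed between libraries. Hspa8 (chromosome 9, 40800984 to 40810087, mm10) held 64.3% to 65.5% of the summed level of Hspa8 and Gm15459 (chromosome 5, 5781615 to 5783555) in 4 libraries. These were 6M_PoW replicate 3, 6M_POW_LD replicate 6, 9M_PoW+DT replicate 1 and 6M_UT replicate 3. In the other 11 libraries it held 45.0% to 48.1%. In the 4 libraries Hspa8 alone read 548 to 625 CPM and Gm15459 292 to 347 CPM, against 392 to 490 CPM and 474 to 535 CPM in the other 11. The sum of Hspa8 and its 7 pseudogenes spanned 881 to 1067 CPM over all 15, a far narrower spread, so Hspa8 is given below both alone and summed. The sum was chosen after these data were seen, so its p-values below were not planned. Cdc37, the co-chaperone that brings kinases to HSP90 and which also lies on chromosome 9 (21133222 to 21149982), had its 4 lowest levels, 70.8 to 80.5 CPM, in the same 4 libraries, and 83.9 to 94.6 CPM in the others. Cdc37 and the 4 libraries were picked out after their values were seen, so no test was made. The share of all genes that are lowest in these 4 libraries is not given here. Reads were not used here, so whether the libraries differ in sequence at these genes was not tested.

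**Figure D2:**
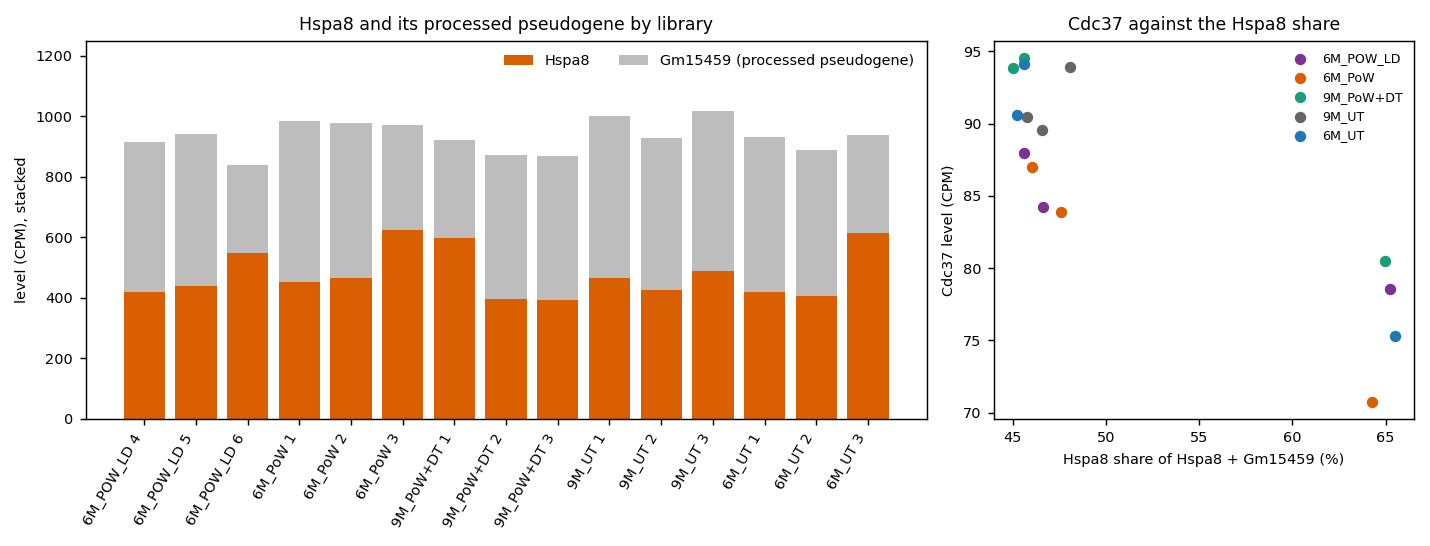
Left, stacked level in CPM of Hspa8 and its processed pseudogene Gm15459 in each of the 15 libraries; right, level of Cdc37 in CPM against the share of Hspa8 in that sum, in percent, with points coloured by group. The share is 64.3% to 65.5% in 4 libraries of 4 groups and 45.0% to 48.1% in the other 11, and Cdc37 is lowest in those 4.

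The first comparison asked which of these genes differed after 8 weeks of weighted running. No chaperone gene passed the test. In edgeR's quasi-likelihood test with Benjamini-Hochberg adjustment over 14919 genes, 0 of the 10 genes had an adjusted p under 0.05, as did 0% of all genes. At an unadjusted p under 0.05 there was 1 of the 10 genes and 1455 genes in all (9.75%). DESeq2 called 112 genes, Hspa5 among them, and limma-voom called 2, neither one of the 10.

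Hspa5, the HSP70 of the ER (chromosome 2, 34771970 to 34777547), stood furthest apart. It read 100.05, 109.5 and 92.5 CPM in 6M_PoW, against 144, 139 and 119 CPM in 6M_UT. Every trained library lay below every untrained one. The log2 fold change was -0.41 ± 0.10 (SE), a mean of 101 ± 8.52 against 134 ± 12.9 CPM (SD, n = 3 each), with an adjusted p of 0.160 in edgeR, 0.0337 in DESeq2 and 0.151 in limma-voom. Hsp90aa1 read 31.7, 32.2 and 29.9 CPM in 6M_PoW and 26.0, 27.99 and 27.1 CPM in 6M_UT. Its groups did not overlap either, with the trained ones higher, at a log2 fold change of 0.21 ± 0.11 and an edgeR adjusted p of 0.572. So 2 of the 10 genes separated the groups without overlap, 1 in each direction, beside 16.2% of all genes (7.89% higher and 8.28% lower). With 3 pseudogenes added, Hsp90aa1 stood at 45.1 ± 1.35 CPM in 6M_PoW and 40.1 ± 1.94 CPM in 6M_UT, a log2 fold change of 0.17.

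The remaining genes, each counted alone, overlapped between trained and untrained muscle. Hspa8 alone gave 515 ± 95.7 CPM in 6M_PoW and 480 ± 117 CPM in 6M_UT, and these SDs carried the split described above. Summed with its pseudogenes, which was not planned, it gave 1022 ± 6.12 CPM in 6M_PoW and 961 ± 27.3 CPM in 6M_UT. Every trained library then lay above every untrained one, at a log2 fold change of 0.088 with an edgeR adjusted p of 0.686. Hsp90ab1 was at 999.5 ± 65.8 CPM in 6M_PoW and 936 ± 40.8 CPM in 6M_UT, and Hsph1 at 71.4 ± 2.86 and 66.3 ± 2.21 CPM. Both sets of ranges overlapped. Hspb1 gave 106 ± 20.8 CPM in 6M_PoW and 115 ± 33.5 CPM in 6M_UT, and Cryab 351 ± 49.0 and 401 ± 84.4 CPM. Hspa1a, Hspa1b and Dnajb1 differed by less than their standard errors, with log2 fold changes of 0.059 ± 0.21, 0.28 ± 0.52 and 0.20 ± 0.23. Over the 10 genes, 3 lay below 0 with a median of 0.10, beside 49.8% of all genes below 0 and a median of 0.00129.

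Sums of some cell type marker lists also separated trained from untrained libraries, as the levels of 16.2% of all genes did. The 7 fibro-adipogenic progenitor markers, all above 0 in log2 fold change, summed to 465 to 576 CPM in 6M_PoW and 349 to 368 CPM in 6M_UT, and the 7 leukocyte markers to 48.3 to 66.5 CPM and 34.6 to 36.9 CPM. The 6 endothelial markers, 5 of them above 0, summed to 293 to 328 CPM in 6M_PoW and 230.0 to 272 CPM in 6M_UT. The 5 adipocyte markers summed to 103.7 to 120.4 CPM in 6M_PoW and 97.1 to 102.4 CPM in 6M_UT. Only 1 of the 5 lay above 0, with a median log2 fold change of -0.332, so this sum went against most of its genes. None of these markers was called. The part of these lists in the Hspa5 and Hsp90aa1 differences was not tested. In these bulk samples fewer cells of a type and less RNA per cell cannot be told apart.

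**Figure D3:**
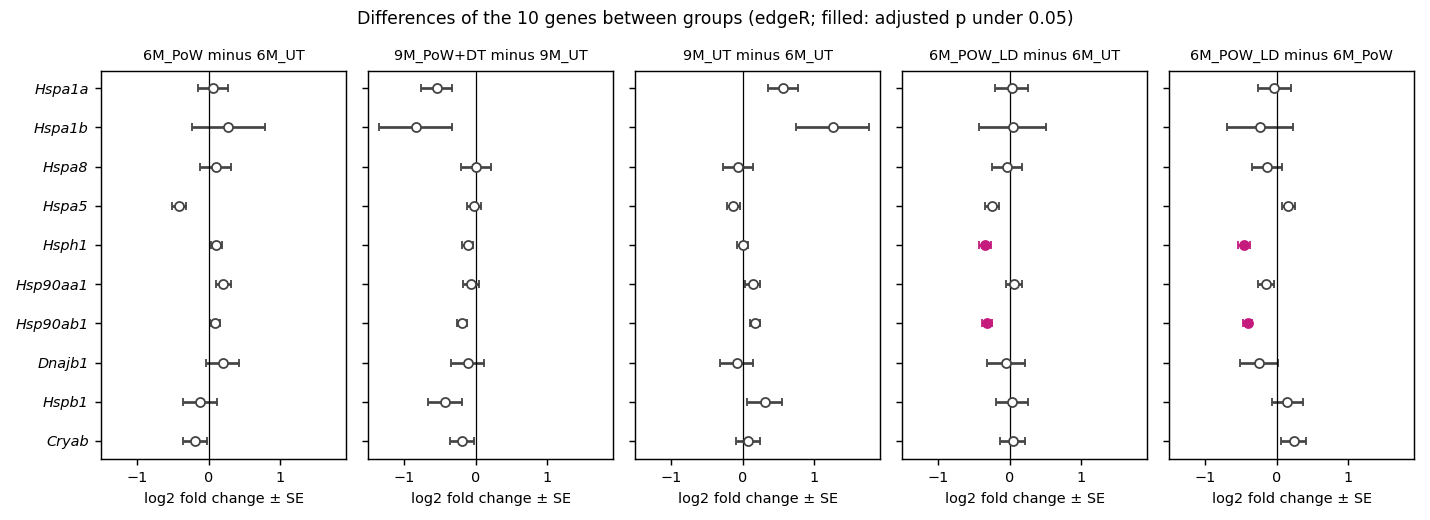
Log2 fold change ± SE (horizontal axis) of the 10 genes (rows) in 5 comparisons of 3 libraries against 3; filled points had an adjusted p under 0.05 in edgeR. Only Hsp90ab1 and Hsph1 in the comparisons with LD libraries are filled, between -0.31 and -0.45.

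The second comparison asked what was left 12 weeks after training ended, against untrained mice of the same age. None of the 10 genes passed the edgeR test, beside 3 of 14919 genes (0.0201%), and 2 of the 10 had an unadjusted p under 0.05, beside 6.52% of all genes. DESeq2 called 30 genes, none of the 10. Exchanging the 9-month groups, as the treatment field reads, turns every sign here and changes no size.

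Hsp90ab1 read 961, 859 and 951 CPM in 9M_PoW+DT, against 1032, 1106 and 1034 CPM in 9M_UT. Every detrained library lay below every untrained one, at a log2 fold change of -0.19 ± 0.07 (SE) and an edgeR adjusted p of 0.690. It was the single one of the 10 genes without overlap, beside 11.9% of all genes, 5.70% of them in this direction. Hspa5, apart in trained muscle, read 120, 116 and 125 CPM in 9M_PoW+DT and 116, 113 and 139 CPM in 9M_UT. These overlapped, with a log2 fold change of -0.025 ± 0.10.

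The paired heat-inducible genes Hspa1a and Hspa1b, which encode almost the same protein, varied most among the 9-month libraries. Hspa1a (chromosome 17, 34969190 to 34972156) read 10.2, 12.4 and 8.83 CPM in 9M_PoW+DT, against 17.4, 10.6 and 17.9 CPM in 9M_UT. Hspa1b (chromosome 17, 34956436 to 34959238) read 7.69, 9.34 and 4.39 CPM in 9M_PoW+DT, against 18.4, 6.22 and 13.7 CPM in 9M_UT. For both genes replicates 1 and 3 of 9M_UT were the highest of all 15 libraries, while 9M_UT replicate 2 lay among the detrained libraries. The log2 fold changes were -0.55 ± 0.21 for Hspa1a (unadjusted p = 0.0214, edgeR adjusted p = 0.703) and -0.84 ± 0.51 for Hspa1b (edgeR adjusted p = 0.808). Since reads can be split between these copies, their counts were also summed before the fit, which gave -0.67 with an edgeR adjusted p of 0.759. For Hspa1b alone the log2 fold change was -0.48 without 9M_UT replicate 1 and -1.17 without 9M_UT replicate 2.

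Of the 10 genes, 9 lay below 0, with a median of -0.15, beside 49.1% of all genes below 0 and a median of 0.00479. Hspb1 was at 106 ± 24.5 CPM in 9M_PoW+DT and 143 ± 21.4 CPM in 9M_UT, a log2 fold change of -0.42 ± 0.24, and Cryab at 372 ± 16.2 and 424 ± 87.2 CPM. The Cryab log2 fold change, -0.19 ± 0.17, was -0.011 without 9M_UT replicate 1. Hspa8 alone gave 462 ± 118 CPM in 9M_PoW+DT and 460 ± 32.7 CPM in 9M_UT. Summed with its pseudogenes, which was not planned, it gave 925.5 ± 31.8 and 1024 ± 52.0 CPM without overlap. The log2 fold change of this sum was -0.15 (edgeR unadjusted p = 0.0334, adjusted p = 0.734). Hsph1, Hsp90aa1 and Dnajb1 gave -0.11 ± 0.08, -0.061 ± 0.11 and -0.11 ± 0.23.

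Immediate early genes, which respond within minutes to stress and activity and to handling of tissue, stood beside this. The 10 genes of that list, among them Fos, Jun and Egr1, summed to 278 to 406.5 CPM in 9M_PoW+DT and to 457 to 501 CPM in 9M_UT, and 0 of the 10 had a log2 fold change above 0. The 9M_UT library with the highest sum, replicate 2, was the one with low Hspa1a and Hspa1b. The 8 transcripts of the mitochondrial genome summed to 143000 to 161900 CPM in 9M_PoW+DT and 169500 to 203900 CPM in 9M_UT, also with 0 of 8 above 0. The 8 slow fibre markers, 0 of 8 above 0, overlapped, at 97.9 to 382 CPM in 9M_PoW+DT and 147 to 706 CPM in 9M_UT. Their highest sum belonged to 9M_UT replicate 1, the library with the highest Hspa1b and Cryab of all 15. No gene of these 3 lists was called in the detraining comparison, and their part in the chaperone values was not tested.

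Whether the detraining effect differed from the training effect was tested directly, as (9M_PoW+DT minus 9M_UT) minus (6M_PoW minus 6M_UT). None of the 10 genes passed the edgeR test, beside 4 of 14919 genes (0.0268%). At an unadjusted p under 0.05 stood Hspa5, with a log2 difference of 0.39 ± 0.13 (edgeR adjusted p = 0.376), and Hsp90ab1, with -0.29 ± 0.10 (edgeR adjusted p = 0.380), beside 9.48% of all genes. DESeq2 called 111 genes, none of the 10.

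The untrained groups were set against each other for age, which is confounded with library series. None of the 10 genes passed, beside 2 of 14919 genes (0.0134%) in edgeR. There were 3 at an unadjusted p under 0.05, beside 6.72% of all genes, and all were higher in 9M_UT, beside 3.21% of all genes in that direction. Hspa1b averaged 12.8 ± 6.13 CPM in 9M_UT and 5.29 ± 2.44 CPM in 6M_UT (SD, n = 3 each), a log2 fold change of 1.27 ± 0.51 and an edgeR adjusted p of 0.724. For Hspa1a the means were 15.3 ± 4.06 CPM in 9M_UT and 10.3 ± 0.582 CPM in 6M_UT, a log2 fold change of 0.57 ± 0.21 and an edgeR adjusted p of 0.621. Hsp90ab1 gave 1057 ± 42.3 and 936 ± 40.8 CPM, with every 9M_UT library above every 6M_UT library, as for 5.34% of all genes (11.8% in either direction), and a log2 fold change of 0.18 ± 0.07. This comparison and the detraining comparison share the 9M_UT libraries, and this one and the training comparison share 6M_UT. DESeq2 called 58 genes, none of the 10. Marker lists shifted beside this. Of the 10 immediate early genes, 9 lay above 0 and 1 was called higher in edgeR. All 8 slow fibre markers, 8 mitochondrial transcripts, 7 fibro-adipogenic progenitor markers and 7 leukocyte markers lay above 0, with 0 called. Of the 5 red blood cell and 5 Schwann cell markers, 0 and 0 lay above 0. The part of these lists in the chaperone values was not tested.

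Since Hspa1a and Hspa1b varied between libraries of a group, genes with the most similar profile over the 15 libraries were looked up. Their summed level ran from 12.1 CPM in 6M_PoW replicate 3 to 35.7 CPM in 9M_UT replicate 1, and it was 31.6 CPM in 9M_UT replicate 3 and at most 23.2 CPM in the other 13. Of 9261 genes, Myh10, a nonmuscle myosin heavy chain gene, followed it most closely, with Pearson's r = 0.928 and Spearman's rho = 0.950 over 15 libraries. Its level ran from 25.8 to 57.4 CPM, and r was 0.869 without the 2 libraries farthest from the median of the sum. The calcineurin regulator Rcan1 came next, with r = 0.840 and rho = 0.811. Then came the deubiquitinase gene Otud1, with r = 0.799, the phosphate transporter gene Slc20a1, with 0.798, and the transcription cofactor gene Vgll2, with 0.785. For Rcan1 and these 3 genes r was 0.551 to 0.716 without the 2 libraries. These values describe libraries that share groups and preparation, and the genes were picked as the highest of many.

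**Figure D4:**
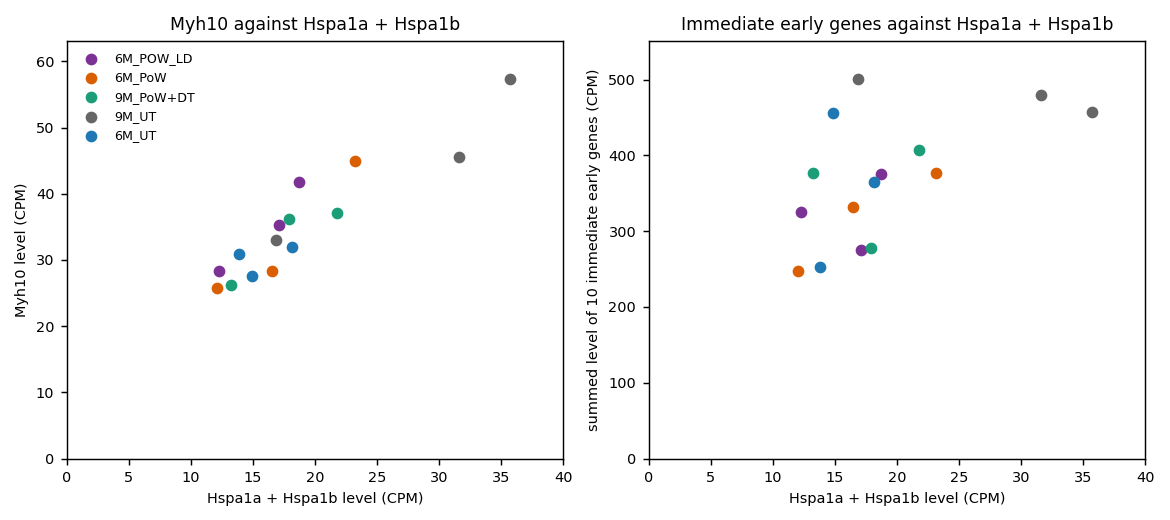
Summed level of Hspa1a and Hspa1b (horizontal axes, CPM) against the level of Myh10 (left, CPM) and the summed level of 10 immediate early genes (right, CPM) in 15 libraries, coloured by group. Myh10 is highest, at 57.4 CPM, in the library with the highest Hspa1a and Hspa1b, while the highest immediate early sum, 501 CPM, belongs to a library with 16.8 CPM of Hspa1a and Hspa1b.

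Among the 10 genes themselves, 4 of 45 pairs had r of 0.5 or more over the 15 libraries and 0 had -0.5 or less. The 4 pairs were Hspa1a with Hspa1b, Hspa1a with Cryab, Hspa1b with Hsp90aa1, and Hsp90ab1 with Hsph1. The 3 LD libraries held the 3 lowest levels of both genes of the last pair. Hspa1a and Hspa1b, at r = 0.798, are near-identical copies between which reads can be split. How far this shaped their r was not tested.

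The LD libraries were set against untrained and against trained mice of 6 months, in a fit of all 15 libraries. Hsp90ab1 and Hsph1 fell in both comparisons, and the other 8 genes passed in neither. Both comparisons use the same LD libraries, so they are not independent. Hsp90ab1 (chromosome 17, 45567775 to 45573271) read 758, 784 and 721 CPM in 6M_POW_LD. It read 997, 935 and 1067 CPM in 6M_PoW, and 983, 916 and 910 CPM in 6M_UT. All 3 LD libraries lay below every other library of the study. Hsph1 (chromosome 5, 149614287 to 149636376), the nucleotide exchange factor of HSP70, read 55.9, 56.2 and 44.4 CPM in 6M_POW_LD. It read 68.5, 71.6 and 74.2 CPM in 6M_PoW, and 64.2, 68.6 and 66.0 CPM in 6M_UT. The LD libraries were again below all others, with replicate 6 the lowest.

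Against 6M_UT, 2 of the 10 genes were called lower and 0 higher, beside 4.99% of 15181 genes called in either direction and 2.83% called lower. Hsp90ab1 averaged 754 ± 31.8 CPM in 6M_POW_LD and 936 ± 40.8 CPM in 6M_UT, a log2 fold change of -0.31 ± 0.07 (SE) with an edgeR adjusted p of 0.0134. Hsph1 averaged 52.2 ± 6.75 CPM in 6M_POW_LD and 66.3 ± 2.21 CPM in 6M_UT, a log2 fold change of -0.35 ± 0.09 with an edgeR adjusted p of 0.0315. These were also the 2 of the 10 genes without overlap, beside 25.2% of all genes, 12.7% of them in this direction. The Hsp90ab1 call ended without 6M_UT replicate 1 (-0.28, adjusted p = 0.0620) or 6M_POW_LD replicate 6 (-0.28, adjusted p = 0.0665). The Hsph1 call ended without 6M_UT replicate 1, 2 or 3 (adjusted p = 0.0575, 0.0786 and 0.0663) or 6M_POW_LD replicate 6 (-0.24, adjusted p = 0.134). It also ended when only these groups were fitted (adjusted p = 0.100). The number of all genes called, 757, dropped to 386 without 6M_UT replicate 1 and to 403, 288 and 437 without 6M_POW_LD replicates 4, 5 and 6.

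Against 6M_PoW, 2 of the 10 genes were called lower and 0 higher, beside 2.40% of 15181 genes called in either direction and 1.12% called lower. Hsp90ab1 averaged 754 ± 31.8 CPM in 6M_POW_LD and 999.5 ± 65.8 CPM in 6M_PoW, a log2 fold change of -0.41 ± 0.07 with an edgeR adjusted p of 0.00310. Hsph1 averaged 52.2 ± 6.75 CPM in 6M_POW_LD and 71.4 ± 2.86 CPM in 6M_PoW, a log2 fold change of -0.45 ± 0.09 with an edgeR adjusted p of 0.00929. Both stayed called without any single library, with adjusted p-values of 0.00262 to 0.0248 for Hsp90ab1 and 0.00874 to 0.0471 for Hsph1. Without overlap were 2 of the 10 genes, beside 21.4% of all genes, 10.7% of them in this direction. The number of all genes called, 365, dropped to 161 to 231 without any one of the 6M_PoW libraries and to 157, 217 and 213 without 6M_POW_LD replicates 4, 5 and 6.

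The other 8 genes did not pass in the comparisons with LD libraries. Hspa5 read 121, 104 and 114 CPM in 6M_POW_LD, with a mean between those of 6M_PoW and 6M_UT and a log2 fold change of -0.25 ± 0.09 against 6M_UT (edgeR adjusted p = 0.144) and 0.17 ± 0.09 against 6M_PoW (edgeR adjusted p = 0.477). Hsp90aa1, the stress-inducible HSP90 gene, gave 0.067 ± 0.11 against 6M_UT and -0.14 ± 0.11 against 6M_PoW. Hspa1a gave 0.028 ± 0.23 and -0.031 ± 0.23 in these comparisons, Hspb1 0.035 ± 0.22 and 0.15 ± 0.22, and Cryab 0.044 ± 0.17 and 0.24 ± 0.17. Hspa1b gave 0.047 ± 0.47 and -0.23 ± 0.47, and Dnajb1 -0.047 ± 0.27 and -0.24 ± 0.27. Hspa8 gave -0.036 ± 0.21 and -0.14 ± 0.21 alone, and -0.032 and -0.12 with its pseudogenes. That sum was 960, 979 and 881 CPM in 6M_POW_LD, below every 6M_PoW library (1028, 1020 and 1016 CPM), with an edgeR adjusted p of 0.408. Beside these results, the fibro-adipogenic progenitor markers summed to 480 to 608 CPM and the leukocyte markers to 52.0 to 64.3 CPM in 6M_POW_LD, above all 6M_UT libraries. Of the 7 and 7 markers, 4 and 1 were called higher against 6M_UT and 0 and 0 against 6M_PoW. Of the 8 muscle fibre markers, 3 were called higher against 6M_UT and 1 against 6M_PoW, where all 8 lay above 0. Their sum was 107900 to 120500 CPM in 6M_POW_LD, 96020 to 106600 CPM in 6M_PoW and 99570 to 114100 CPM in 6M_UT. The 5 Schwann cell markers summed to 39.8 to 108.6 CPM in 6M_POW_LD, above all 6M_PoW and 6M_UT libraries, with 0 called. The 5 red blood cell markers reached 3112 CPM in 6M_POW_LD replicate 6, against 326 to 1040 CPM in the 12 libraries without LD. The part of these markers in the Hsp90ab1 and Hsph1 results was not tested.

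The wider chaperone network was read from 8 lists of 88 other genes, of which 86 were tested. After training and after detraining, 0 of 86 passed in edgeR, and the same held for the difference and for age. At an unadjusted p under 0.05 there were 8 and 3 of 86 after training and detraining, beside 9.75% and 6.52% of all genes. The median log2 fold change of the 86 was -0.045 after training and 0.00437 after detraining.

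Within the lists, the gene with the smallest p after training was Hspa4l, an HSP110 family gene, in the other HSP70 and HSP110 genes. It read 12.0, 11.9 and 9.53 CPM in 6M_PoW, against 5.33, 5.77 and 5.41 CPM in 6M_UT, so the groups did not overlap. The log2 fold change was 1.02 ± 0.29, with an edgeR adjusted p of 0.257. In the ER list of 22 genes, where Hspa5 belongs by function, it was the calcium-binding chaperone Calr, at 74.2 ± 4.27 CPM in 6M_PoW and 86.9 ± 6.82 CPM in 6M_UT. Its log2 fold change was -0.23 ± 0.08 (edgeR adjusted p = 0.395), and 8 of the 22 genes lay above 0 with a median of -0.093. In the other lists it was the small heat shock protein Hspb8 at 0.20 ± 0.08, the HSP40 gene Dnajb5 at -0.36 ± 0.15, the HSP70 co-chaperone Bag2 at 0.38 ± 0.16 and the transcription factor Hsf4 at -0.55 ± 0.19. Cct7 of the cytosolic chaperonin gave -0.15 ± 0.08 and the mitochondrial HSP90 gene Trap1 -0.11 ± 0.08. The edgeR adjusted p-values of these 6 were 0.364 to 0.682.

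After detraining, Calr stood at 91.1 ± 4.57 CPM in 9M_PoW+DT and 80.3 ± 6.36 CPM in 9M_UT, a log2 fold change of 0.18 ± 0.08, with 13 of the 22 ER genes above 0 and a median of 0.033. Bag2 was at 16.9 ± 1.67 and 12.98 ± 1.25 CPM, giving 0.38 ± 0.16, close to its value after training. Hsf4 gave 0.36 ± 0.19, of opposite sign to training, and Hspa12a, a distant HSP70 relative, 0.56 ± 0.22. Hspb8 gave -0.086 ± 0.08, Dnaja2 -0.13 ± 0.08, Cct5 0.13 ± 0.07 and Trap1 -0.035 ± 0.08. The edgeR adjusted p-values of these 8 genes were 0.703 to 0.956.

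In the LD libraries, 4 of the 86 genes passed against 6M_UT, 1 higher and 3 lower, beside 4.99% of all genes. Against 6M_PoW 2 passed, 1 in each direction, beside 2.40% of all genes. Both shares are near those of all genes, so the genes below are given as single genes. Smyd1, a muscle methyltransferase that works with HSP90 and Unc45b in myosin folding, read 604, 518 and 535 CPM in 6M_POW_LD. It read 445, 420 and 432 CPM in 6M_PoW, and 405, 436 and 426 CPM in 6M_UT. Its LD libraries were above all others, at a log2 fold change of 0.35 ± 0.07 against 6M_PoW (edgeR adjusted p = 0.00785) and 0.39 ± 0.07 against 6M_UT (edgeR adjusted p = 0.00276). The call against 6M_PoW ended without 6M_POW_LD replicate 4 (0.28, adjusted p = 0.0645).

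Ptges3, which encodes the HSP90 co-chaperone p23, read 23.5, 24.2 and 27.9 CPM in 6M_POW_LD, against 34.9, 32.8 and 33.5 CPM in 6M_PoW. The groups did not overlap, and the log2 fold change was -0.42 ± 0.09 (edgeR adjusted p = 0.0199). The call ended without 6M_PoW replicate 1 or 3 (adjusted p = 0.0821 and 0.0684) or without 6M_POW_LD replicate 4 or 5 (adjusted p = 0.109 and 0.0816).

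The 3 genes lower against 6M_UT were Herpud1, which acts in ER-associated degradation, Ern1, the stress sensor IRE1, and Dnajb12, an HSP40 of the ER membrane. The first 2 are in the ER list and Dnajb12 is in the HSP40 list. Herpud1 averaged 85.2 ± 6.31 CPM in 6M_POW_LD and 119 ± 19.6 CPM in 6M_UT, a log2 fold change of -0.49 ± 0.10 (edgeR adjusted p = 0.0103). Ern1 averaged 17.2 ± 0.180 CPM in 6M_POW_LD and 24.2 ± 4.59 CPM in 6M_UT, a log2 fold change of -0.49 ± 0.13 (edgeR adjusted p = 0.0374). Dnajb12 averaged 45.5 ± 3.16 CPM in 6M_POW_LD and 59.97 ± 8.74 CPM in 6M_UT, a log2 fold change of -0.40 ± 0.11 (edgeR adjusted p = 0.0354). For all 3 genes 6M_UT replicate 1 was the highest untrained library. Without it their log2 fold changes were -0.36, -0.33 and -0.28, with adjusted p-values of 0.0557, 0.198 and 0.177. The calls also ended without 6M_POW_LD replicate 5 (adjusted p = 0.0576, 0.124 and 0.155). Those of Ern1 and Dnajb12 ended without 6M_POW_LD replicate 4 (0.0914 and 0.0567) or 6 (0.0936 and 0.0838), and that of Dnajb12 without 6M_UT replicate 2 (0.0550). The ER list as a whole had 2 of 22 genes called lower and 12 above 0, with a median of 0.040.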

How the data were processed

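RNA was measured by sequencing in 15 plantaris libraries. The authors deposited expected counts per gene, of which 26.2% to 31.3% of a library's values, zeros included, were not whole. Per the submitters' processing notes the tools were STAR 2.7.3a, Partek and DESeq2 and the build mm10, with no role stated. How reads were counted, with which annotation and whether by strand, was not given in the sources used here. The members and gene lists were chosen with earlier results of these data known.

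The deposited expected counts were rounded, low genes were removed with filterByExpr, and libraries were scaled by TMM (trimmed mean of M values). A quasi-likelihood model with 1 mean per group and robust dispersion was fitted (edgeR 4.0.16, R 4.3.3). Comparisons without LD libraries used 12 libraries and 14919 genes, and those with LD used 15 libraries and 15181 genes. The Benjamini-Hochberg adjustment ran over all genes of a comparison, and an adjusted p under 0.05 was a call. The SE is the log2 fold change divided by the square root of its F statistic. CPM are counts scaled to 1000000 with the TMM factors of 15 libraries, and per-kilobase levels use the longest principal transcript of GENCODE.

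DESeq2 1.42.0, limma-voom (limma 3.58.1), other scalings and filters, other mappings of contradicting labels and leaving out each library were alternatives. Named genes were the 10 members, called genes of the other lists (or the smallest p after training and detraining), and the 6 genes with official symbols, predicted-gene names left out, whose log2(CPM + 0.5) correlated best with that of Hspa1a plus Hspa1b among genes averaging at least 2; 1 of these 6 is not reported here. Likeness to pseudogenes was measured by shared words of 50 bases, and pseudogenes sharing at least 5% were summed with their gene in an alternative chosen after seeing the data. On simulated data with 40 genes changed per fold size, edgeR recovered 85.0% of 2-fold and 37.5% of 1.5-fold increases for training. It recovered 95.0% and 47.5% for detraining, and 92.5% and 30.0% for LD against 6M_UT. Halved genes were recovered at 85%, 75% and 90% in the same order, and no 1.5-fold decrease was simulated. Only genes averaging at least 2 in log2 CPM were changed. Genes of all fold sizes, 0.25 to 4, were changed in the same data, which eases the adjusted threshold for each. Where few real genes differ, these shares can overstate what the test recovers. False calls numbered 11 for training, 14 for detraining and 8 for LD against 6M_UT. The simulated spread came from the 12 libraries without LD, so that of the LD libraries was not in it. Same-numbered libraries did not deviate together (correlations of -0.219 to 0.155), so replicate numbers were not used as pairs.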

Additional observations from a re-analysis of the deposited data

Results flagged for a closer look

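Smyd1 was 0.35 higher (log2) and Ptges3 0.42 lower, at -0.42, in 6M_POW_LD than in 6M_PoW, and Hsp90ab1 and Hsph1 stood at -0.41 and -0.45 in the same comparison. These 4 genes drew attention because both sets of libraries are titled as trained mice of 6 months, yet their levels were not alike. The edgeR adjusted p-values were 0.00785 for Smyd1, 0.0199 for Ptges3, 0.00310 for Hsp90ab1 and 0.00929 for Hsph1. They are the values already given for 6M_POW_LD against 6M_PoW. Setting both groups against 6M_UT first and comparing the differences is that same comparison, so it gives no second test. The LD libraries carry a contradicting treatment label and identifiers of their own, so treatment and library series cannot be told apart for them.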

How the results depend on the processing

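The 10 genes kept 0 calls for training, detraining, their difference and age in every alternative except DESeq2, which called 1, Hspa5, after training. The replicate block, fitted for these comparisons, changed no call among the 10 genes and gave 1 gene called in all for training and 5 for age. The calls of Hsp90ab1 and Hsph1 against 6M_PoW held in every alternative. Against 6M_UT, fitting only the groups compared left 1 of the 10 genes called (Hsp90ab1), and Herpud1, Ern1 and Dnajb12 were lost (adjusted p = 0.0606, 0.0900 and 0.0900).

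Counts of all genes called were small without LD libraries and moved with the tool. For training they were 8 with no filter on low counts, 112 in DESeq2, 2 in limma-voom, 4 with only the groups compared and 29 with the LD libraries taken as trained. For detraining they were 30 in DESeq2 and 18 with only the groups compared. For the difference they were 10 with no filter, 0 with a stricter filter, 111 in DESeq2, 0 in limma-voom, 2 and 1 with the LD libraries taken as trained and as untrained, and 0 with the 9-month groups exchanged. For age they were 10 with no filter, 0 with a stricter filter, 58 in DESeq2, 4 in limma-voom, 4 in the fit of 15 libraries, 10 with only the groups compared and 0 with the 9-month groups exchanged. Against 6M_UT the LD libraries gave 1190 in DESeq2 and 387 with only the groups compared, and against 6M_PoW 675 in DESeq2. Leaving out 1 library at a time gave 0 to 10 for training, 1 to 6 for detraining, 0 to 26 for the difference, 1 to 15 for age, 288 to 827 and 157 to 428 for the LD libraries against 6M_UT and 6M_PoW, and 0 to 2 of the 10 genes against 6M_UT. The cause of these shifts was not tested.

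Some log2 fold changes that had not passed changed sign. With the LD libraries taken as trained, Hsp90ab1 and Hsph1 stood at -0.095 and -0.10 for training and Cryab at -0.12 for the difference. Hspa8 stood at -0.018 for detraining in limma-voom, and with its pseudogenes at -0.15 for detraining and 0.091 for age. With the 9-month groups exchanged, the difference was 0.49 for Hspa1a, 0.56 for Hspa1b, 0.54 for Hspb1, 0.10 for Hsp90ab1 and 0.000895 for Hsph1. Age then gave -0.11 for Hspb1, Cryab and Hsph1 and -0.019 for Hsp90ab1. Near 0, Cryab stood at -3.99e-05, -0.00262 and -0.00244 for the difference under upper quartile scaling, no filter and a stricter filter, and Hsph1 at -0.00202 for age under upper quartile scaling. Leaving out 1 library turned the sign of further genes without a call. For training these were Hspa1a (-0.18 to 0.19), Hspa1b (-0.033 to 0.74), Hspa8 (-0.056 to 0.32), Hspb1 (-0.26 to 0.14) and Dnajb1 (-0.040 to 0.40). For detraining these were Hspa8 (-0.22 to 0.11), Hspa5 (-0.081 to 0.072), Hsp90aa1 (-0.17 to 0.046) and Trap1 (-0.083 to 0.034). For their difference these were Hspa8 (-0.32 to 0.067) and Cryab (-0.18 to 0.18). For age these were Hspa8 (-0.17 to 0.16), Cryab (-0.10 to 0.27), Dnajb1 (-0.16 to 0.075) and Hsph1 (-0.023 to 0.053). For 6M_POW_LD against 6M_UT these were Hspa1a (-0.10 to 0.22), Hspa1b (-0.13 to 0.50), Hspa8 (-0.16 to 0.18), Hspb1 (-0.11 to 0.30), Cryab (-0.062 to 0.23), Hsp90aa1 (-0.025 to 0.14) and Dnajb1 (-0.47 to 0.13). For 6M_POW_LD against 6M_PoW these were Hspa1a (-0.16 to 0.21), Hspa1b (-0.55 to 0.080) and Hspa8 (-0.27 to 0.031).

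With 3 libraries a group, the test recovered 37.5% of genes raised 1.5-fold in data simulated for training. It recovered 47.5% of such genes for detraining and 30% for 6M_POW_LD against 6M_UT. Genes changed up to 4-fold were in the same simulated data, so these shares can overstate recovery where few genes differ. Hspa1b and Dnajb1 had the fewest counts. No paired fit was made for the LD libraries because their replicate numbers are not shared with another group.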

Other observations

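The 4 libraries with the higher Hspa8 share also held the 4 lowest levels of Timm29, a gene of mitochondrial protein import, and of Dcps, which encodes an mRNA decapping scavenger enzyme. Timm29 (chromosome 9, 21592722 to 21595970) read 76.3 to 84.7 CPM there and 85.7 to 106 CPM in the other 11 libraries. Dcps (chromosome 9, 35124408 to 35176061) read 2.38 to 2.74 CPM there and 3.22 to 5.40 CPM in the others. Both genes were chosen after their values were seen, both lie on the chromosome of Hspa8 and Cdc37, and the 4 libraries came from 4 different groups. The share of all genes that are lowest in these 4 libraries is not given here, so no link to the chromosome is drawn. Timm29 left little gap between the 2 sets of libraries, and Dcps had only 53 to 126 expected counts.

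Hspb1 and its pseudogene Hsp25-ps1 (chromosome 13, 45078498 to 45079127) were highest in the same library and lowest in the same library. Hsp25-ps1 read 105 CPM in 9M_UT replicate 3, where Hspb1 was highest at 167 CPM, and 53.8 CPM in 6M_PoW replicate 2, where Hspb1 was lowest at 83.0 CPM.

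The cold-inducible RNA-binding genes Cirbp and Rbm3 summed to 61.8 to 67.9 CPM in 6M_POW_LD and 62.3 to 75.8 CPM in 6M_PoW, against 77.1 to 102.7 CPM in 6M_UT. Neither gene was called in any of these comparisons.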
